A study of Mus musculus with 6 samples.

Results

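The glutathione, NRF2 and NADPH detoxification genes are a set of 48 genes named for their roles, and were taken as the probe sets of the array that the platform annotation pairs with these symbols. Of the 48 genes, 45 had a probe set with a single symbol, out of 19933 genes measured in all. Prdx6, G6pdx and Por were not analysed here. Total RNA of cultured 4T1 cells, which derive from a mammary carcinoma of a BALB/c mouse, was hybridised to 6 Affymetrix Mouse Gene ST arrays. WTR- is the untreated parental line (3 arrays), and MR13 is the line that grew from 4T1 cells surviving methotrexate, a folate antagonist (3 arrays). Per the labels the selection used 13 µg/ml methotrexate for up to 2 weeks, until surviving colonies were visible. The concentration and duration in the study's methods differ from these, with a return to medium without drug, and the labels do not say whether drug was present when RNA was taken. MR13 is a single selected line, and RNA came from triplicate wells of each of the lines. Wells are not independent selections, so the p values reflect the spread of the wells alone, and the effect of methotrexate cannot be told apart from what else sets this line apart from its parent.

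NRF2, the transcription factor encoded by Nfe2l2, is bound by KEAP1 in unstressed cells and sent to the proteasome. Electrophiles and oxidants modify KEAP1, NRF2 then accumulates, pairs with small MAF proteins and binds antioxidant response elements in the genes of detoxification enzymes. These enzymes make glutathione, attach it to reactive compounds, reduce peroxides with it, and draw on NADPH to regenerate it. In tumor cells the pathway is known for its part in tolerance of drugs and oxidants.

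Over all probe sets, Pearson's r was 0.998 to 0.9987 between arrays of the same line and 0.984 to 0.987 between the lines, as a description across genes with no test. No array stood apart from its group. Of 5 epithelial markers, the keratin Krt8 was measured at 13.41 in WTR- and 13.53 in MR13, while 4 fell. Their log2 differences (MR13 minus WTR-) were -4.30 for Epcam, -3.24 for Cdh1, -2.23 for Krt19 and -0.19 for Krt18. The mean log2 level of the 5 markers was 11.79 to 11.85 on WTR- arrays and 9.81 to 9.95 on MR13 arrays. Of 5 fibroblast markers, Pdgfra and Dcn rose and Col1a1, Col1a2 and Lum did not pass, with a mean of 6.17 to 6.20 on WTR- arrays and 6.80 to 6.99 on MR13 arrays. Of the 6 myeloid markers, Cd68 rose by 0.35, the other 5 lay among the dimmest 30% of genes, and the mean was 5.78 to 5.83 on WTR- arrays and 5.77 to 5.84 on MR13 arrays. No lymphocyte or endothelial marker passed. The part of the epithelial and fibroblast shifts in the results below was not tested, and in bulk samples fewer cells of a type and less RNA per cell cannot be told apart.

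Detoxification genes were mostly higher in MR13. Of the 45 measured genes, 25 rose and 7 fell at an adjusted p under 0.05 by limma, and 13 did not pass. Over all 19933 genes 37.6% passed, 17.0% higher and 20.6% lower, against 55.6% higher and 15.6% lower among the detoxification genes. Dim genes weigh on the shares over all genes, since 5979 of the 19933 lay among the dimmest 30%, against 3 of the 45. With dim genes left out, 3431 of the remaining genes rose and 4208 fell, which are larger shares than those over all genes. Among the 42 members then left, 26 rose and 7 fell. The median log2 difference of the 45 genes (MR13 minus WTR-, as for all differences given) was 0.26, against 0.01 for all genes. Rises were small for many members, 10 of them under 0.5 on the log2 scale, 7 from 0.5 to 1 and 8 at least 1, a 2-fold change. A called rise of at least 1 was found for 1.96% of all genes, and a called fall of that size for 2.10%. The largest rises were those of Sod3, Gstm1 and Gstm2, and the only 2 members to fall by at least 1 were Gsto1 and Gstm5. For 35 of the 45 members the values of the groups did not overlap, 26 above and 9 below WTR-. That holds for 47.4% of all genes, 22.2% above and 25.2% below. The array signal of one probe set cannot be set against that of another, so levels are compared within a gene only.

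**Figure D1:**
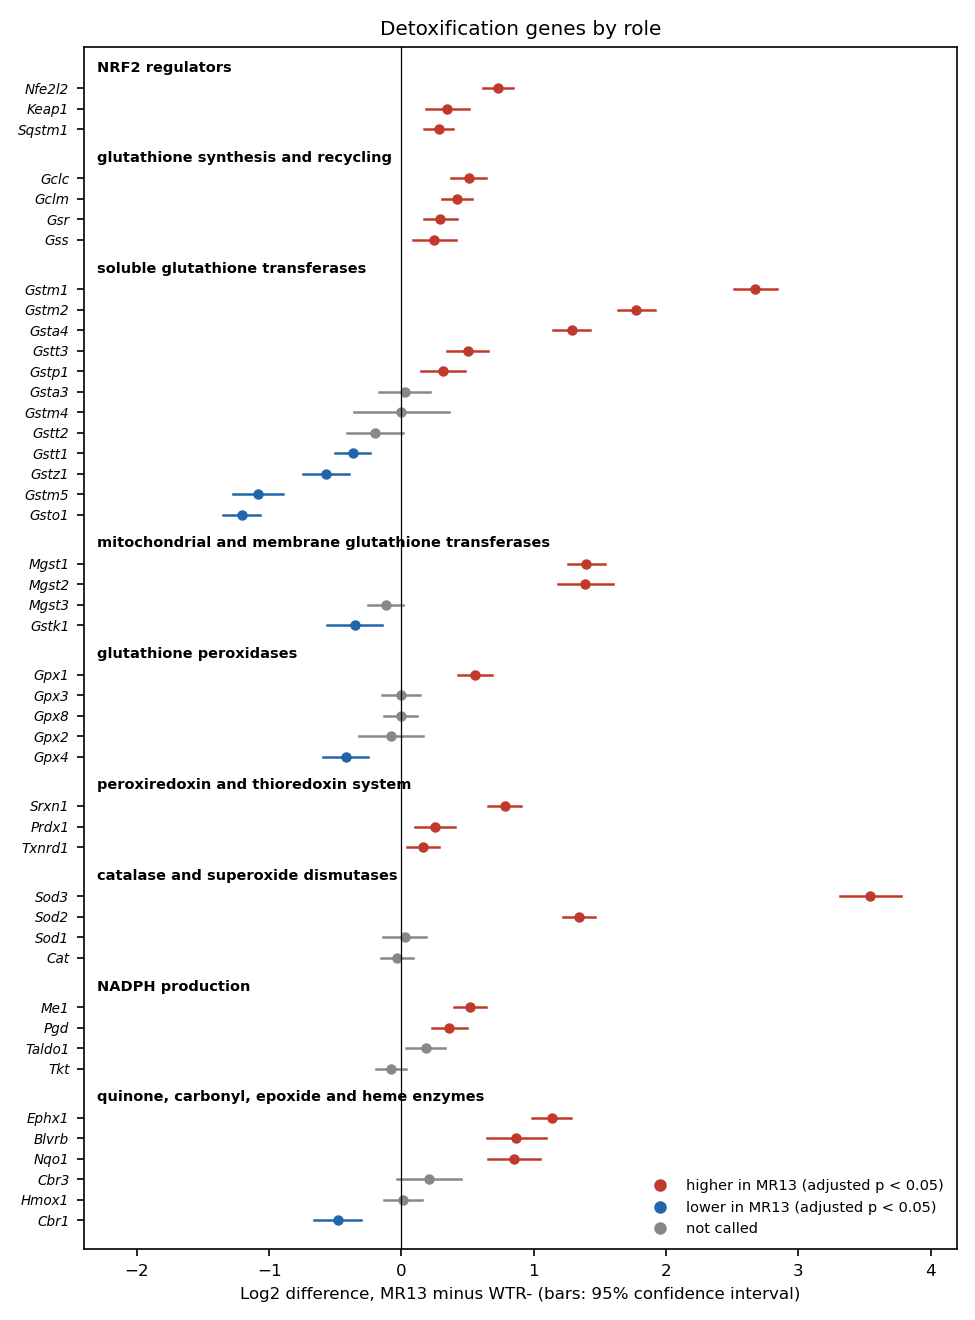
Differences between MR13 and WTR- on the log2 scale (x axis, MR13 minus WTR-) for the 45 measured genes, grouped by role (y axis). Points are limma estimates from 3 arrays a group, bars are 95% confidence intervals, and colours give the call. The 7 genes drawn as NRF2 regulators or under glutathione synthesis and recycling lie above 0, whereas soluble transferases range from -1.21 to 2.68.

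The 3 regulators in the set, Nfe2l2, Keap1 and Sqstm1, were higher in MR13. Nfe2l2 (probe set 10483809) was at 11.52, 11.56 and 11.50 on the WTR- arrays and at 12.28, 12.24 and 12.25 on the MR13 arrays. The groups were well apart, with a difference of 0.73 (SE 0.05, 1.66-fold, adjusted p = 4.96e-06). Keap1, which encodes the protein that holds NRF2 back, was at 9.0, 8.95 and 8.97 in WTR- and at 9.17, 9.44 and 9.35 in MR13. Its rise was smaller and its MR13 values more spread (0.35, SE 0.07, adjusted p = 0.0043). Sqstm1, the gene of the autophagy receptor p62 that can bind KEAP1, was at 12.60, 12.63 and 12.60 in WTR- and at 12.90, 12.91 and 12.88 in MR13. These are narrow groups, and the difference of 0.28 (SE 0.05, adjusted p = 0.0014) corresponds to 1.22-fold.

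All 4 genes of glutathione synthesis and recycling rose as well. Gclc, the catalytic subunit of the rate-limiting glutamate-cysteine ligase, was at 10.18, 10.05 and 10.14 in WTR- and at 10.68, 10.64 and 10.57 in MR13 (0.51, SE 0.06, adjusted p = 0.00013). Gclm, the modifier subunit of the same enzyme, was at 11.03, 11.03 and 11.02 in WTR- and at 11.46, 11.41 and 11.48 in MR13 (0.42, SE 0.05, adjusted p = 0.00015). The subunits thus moved by 1.42-fold and 1.34-fold, and no array of either line fell into the range of the other. Gsr, glutathione reductase, rose by 0.29 (SE 0.05, adjusted p = 0.0023). Gss, the synthetase of the final step, rose by 0.25 (SE 0.07, adjusted p = 0.023), and its call was lost without WTR- replicate 1 or 2 or MR13 replicate 2 or 3 (adjusted p = 0.051 to 0.075) and in the methods' t-test (adjusted p = 0.094).

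NRF2 binds antioxidant response elements, whose core is commonly written TGACNNNGC. This core was searched on both strands (GCNNNGTCA on the given strand is the same site on the other) in the 250 bases before the start site, in RefSeq promoters of mouse build GRCm38.p6. Of the 45 measured genes, 39 had such a promoter and 8 held the core in at least 1 of their promoters (20.5%). It was present for 11.5% of all 27025 genes with a promoter and for 12.5% of the 15610 that were also measured on the arrays. Genes with more promoters have more places to hold it. Counted by promoter, 8 of 52 promoters of the members held it (15.4%), against 10.2% of all 32851. By call, it was found for 5 of 21 genes that rose, 1 of 7 that fell and 2 of 11 that did not pass. A match is a description of the letters and not a site shown to be bound, and elements can lie farther from the start than these windows reach. The 5 promoters of the called genes with the largest differences that hold the core are shown 5′ to 3′ in gene orientation, with the core in capitals. They are those of Mgst1 (chr6:138140277-138140526, + strand), Gstm5 (chr3:107895604-107895853, + strand), Nfe2l2 itself (chr2:75704664-75704913, - strand), Gclm (chr3:122245307-122245556, + strand) and Prdx1 (chr4:116685349-116685598, + strand).
Mgst1: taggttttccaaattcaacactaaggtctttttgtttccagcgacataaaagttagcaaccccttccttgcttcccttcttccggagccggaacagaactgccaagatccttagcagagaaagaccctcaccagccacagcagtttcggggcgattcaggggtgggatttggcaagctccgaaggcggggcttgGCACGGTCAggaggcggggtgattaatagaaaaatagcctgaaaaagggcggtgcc
Gstm5: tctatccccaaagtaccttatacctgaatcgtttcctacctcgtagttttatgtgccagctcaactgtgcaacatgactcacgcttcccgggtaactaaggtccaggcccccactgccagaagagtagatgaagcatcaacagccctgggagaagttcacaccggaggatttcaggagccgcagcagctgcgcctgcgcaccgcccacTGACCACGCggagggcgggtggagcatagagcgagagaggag
Nfe2l2: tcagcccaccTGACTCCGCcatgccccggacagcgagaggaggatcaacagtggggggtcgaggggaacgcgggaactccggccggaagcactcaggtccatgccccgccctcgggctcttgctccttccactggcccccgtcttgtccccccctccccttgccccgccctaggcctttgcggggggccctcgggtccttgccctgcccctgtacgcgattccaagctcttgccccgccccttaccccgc
Gclm: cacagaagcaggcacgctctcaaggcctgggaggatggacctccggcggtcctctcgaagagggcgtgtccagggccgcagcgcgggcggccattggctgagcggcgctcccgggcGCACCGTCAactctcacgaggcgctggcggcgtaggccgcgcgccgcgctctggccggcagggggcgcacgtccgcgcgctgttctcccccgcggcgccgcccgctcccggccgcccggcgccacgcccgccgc
Prdx1: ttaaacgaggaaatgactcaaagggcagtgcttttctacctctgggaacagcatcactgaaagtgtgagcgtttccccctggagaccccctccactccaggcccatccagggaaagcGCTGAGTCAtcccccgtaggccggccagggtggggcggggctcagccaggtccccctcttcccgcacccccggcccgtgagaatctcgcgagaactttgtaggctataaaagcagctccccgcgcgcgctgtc
The core ends 47 bases before the start in Mgst1, 33 in Gstm5, 231 in Nfe2l2, 125 in Gclm and 124 in Prdx1, and lies on the opposite strand in Mgst1, Gclm and Prdx1. A further promoter of Mgst1 did not hold the core. The genes that hold the core moved both ways, from 1.40 for Mgst1 to -1.08 for Gstm5. Promoters of Gstm1, Gstm2, Nqo1, Srxn1, Ephx1 and Sod2, which all rose, did not have these letters in the windows searched.

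Genes often used as readouts of NRF2 had differences from 0.01 to 0.85. Nqo1, the quinone reductase, was at 8.07, 8.14 and 8.41 in WTR- and at 9.09, 9.04 and 9.05 in MR13. The lines were apart, with more spread in WTR-, and the difference was 0.85 (SE 0.09, 1.80-fold, adjusted p = 5.82e-05). Srxn1, which repairs overoxidised peroxiredoxins, was at 9.17, 9.25 and 9.11 in WTR- and at 9.93, 9.96 and 9.98 in MR13 (0.78, SE 0.05, adjusted p = 6.30e-06). Txnrd1, thioredoxin reductase of the cytosol, was at 10.06, 9.94 and 10.01 in WTR- and at 10.13, 10.20 and 10.18 in MR13. Its rise of 0.16 was the smallest to pass (SE 0.05, adjusted p = 0.042), and the call did not hold without WTR- replicate 2 or 3 or without MR13 replicate 2 or 3 (0.13 to 0.17, adjusted p = 0.081 to 0.15) and with the replicate number as a block (adjusted p = 0.075). Hmox1, heme oxygenase, was at 8.63, 8.59 and 8.70 in WTR- and at 8.55, 8.71 and 8.70 in MR13. Its groups overlapped, and the difference was 0.01 with a 95% confidence interval from -0.13 to 0.16, which leaves out a rise of the size seen for Nqo1.

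**Figure D2:**
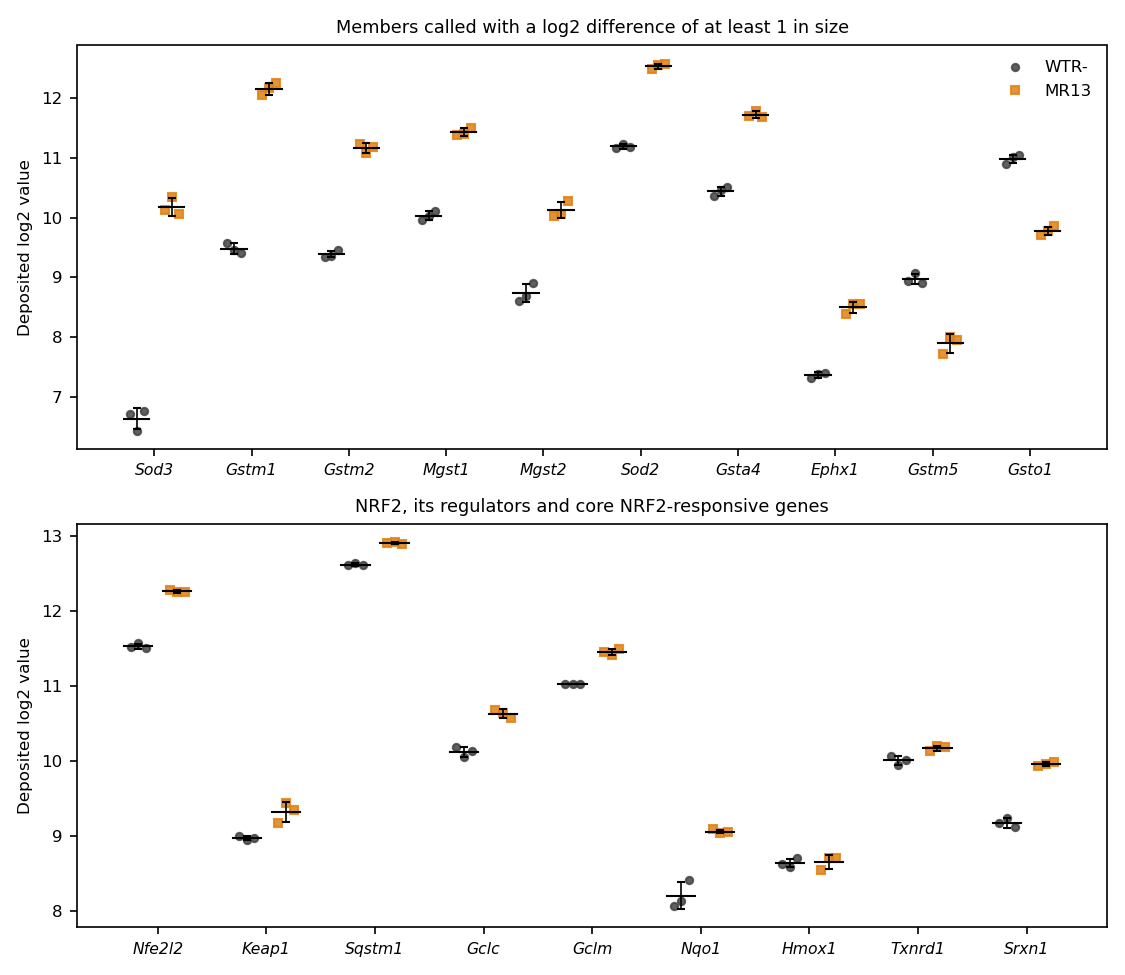
Deposited log2 values (y axis) on each of the 3 WTR- arrays (circles) and 3 MR13 arrays (squares) for 10 genes with a called difference of at least 1 in size (top) and 9 core genes of NRF2 regulation and response (bottom). Horizontal lines are means and bars are SDs. The groups are apart for every gene shown except Hmox1, and Gstm5 and Gsto1 are the 2 that lie lower in MR13.

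The soluble glutathione transferases, which conjugate glutathione to electrophiles, went in both directions, with 5 of 12 higher, 4 lower and 3 not passing. Gstm1, of the mu class, was at 9.58, 9.46 and 9.41 in WTR- and at 12.05, 12.18 and 12.25 in MR13. This 6.39-fold rise (2.68, SE 0.07, adjusted p = 2.11e-08) was the largest among the transferases. Gstm2, of the same class, was at 9.35, 9.37 and 9.45 in WTR- and at 11.24, 11.08 and 11.18 in MR13 (1.78, SE 0.06, adjusted p = 8.47e-08). Gsta4, which acts on the lipid peroxidation product 4-hydroxynonenal, was at 10.36, 10.46 and 10.51 in WTR- and at 11.70, 11.80 and 11.70 in MR13. It rose 2.44-fold (1.29, SE 0.06, adjusted p = 5.43e-07) without overlap. The theta-class gene Gstt3 rose by 0.50 (SE 0.07, adjusted p = 0.00036). Gstp1, of the pi class, rose by 0.31 (SE 0.07, adjusted p = 0.0084), and its call was lost in the methods' t-test (adjusted p = 0.058). Probe sets 10361152 and 10464586 are shared by Gstp1 and Gstp2, and differed by 0.38 and 0.40 in a fit over all probe sets (adjusted p = 0.0015 and 0.0017).

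The 4 soluble transferases that fell were Gsto1, Gstm5, Gstz1 and Gstt1, of which Gstm5 and Gstt1 share a class with genes that rose. Gsto1, an omega-class enzyme with thioltransferase activity, was at 10.91, 11.01 and 11.05 in WTR- and at 9.71, 9.77 and 9.86 in MR13. It was lower on every MR13 array, 2.31-fold on average (-1.21, SE 0.06, adjusted p = 9.09e-07). Gstm5 was at 8.94, 9.08 and 8.91 in WTR- and at 7.72, 8.01 and 7.95 in MR13 (-1.08, SE 0.08, 2.12-fold lower, adjusted p = 1.16e-05). Gstz1, the maleylacetoacetate isomerase of tyrosine breakdown, was at 8.72, 8.91 and 8.88 in WTR- and at 8.15, 8.27 and 8.37 in MR13. Again no arrays overlapped, and the difference was -0.57 (SE 0.08, adjusted p = 0.00032). Gstt1 fell by 0.37 on the log2 scale (SE 0.06, adjusted p = 0.0009). For Gstt2 the difference was -0.20 (95% CI -0.41 to 0.01, adjusted p = 0.13), and it passed without WTR- replicate 3 (-0.30, adjusted p = 0.017). Gsta3 (0.02, 95% CI -0.17 to 0.22) and Gstm4 (95% CI -0.36 to 0.36) had overlapping groups, and Gsta3 was among the dimmest 30% of genes, where background can hide a change.

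Many transferase genes lie side by side on the chromosome, here meaning that at most 1 other protein-coding gene lies between them. The mu-class genes form such a run on chromosome 3, in the order Gstm5, Gstm7, Gstm6, Gstm3, Gstm2, Gstm1 and Gstm4 in the RefSeq gene table. Within it the outermost genes did not rise, with Gstm5 at -1.08 and Gstm4 with overlapping groups, while the 5 genes between them were all higher in MR13. Of those 5, Gstm3 (2.01, SE 0.09), Gstm6 (1.15, SE 0.07) and Gstm7 (1.03, SE 0.11) are not in the set of 48, and Gstm7 was named for its position after its value was seen. Gstm3 has 2 single-symbol probe sets, and its value here is that of the brighter, 10362511, alone. The value of the other is not given here, and which locus 10362511 reads was not checked. Mu-class genes resemble each other in sequence and can share array probes, so these 7 values are not independent, and a rise of 1 transcript can raise the signal of another. The values of Gstm6 in particular are dim (4.21 in WTR-). In the theta-class run on chromosome 10, Gstt3 and Gstt4 rose (0.50 and 2.08), their neighbour Gstt1 fell, and Gstt2 did not pass. In the omega-class pair on chromosome 19, Gsto1 and its neighbour Gsto2 both fell (-1.21 and -0.75). Gsto2, too, was named for its position after its value was seen.

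**Figure D3:**
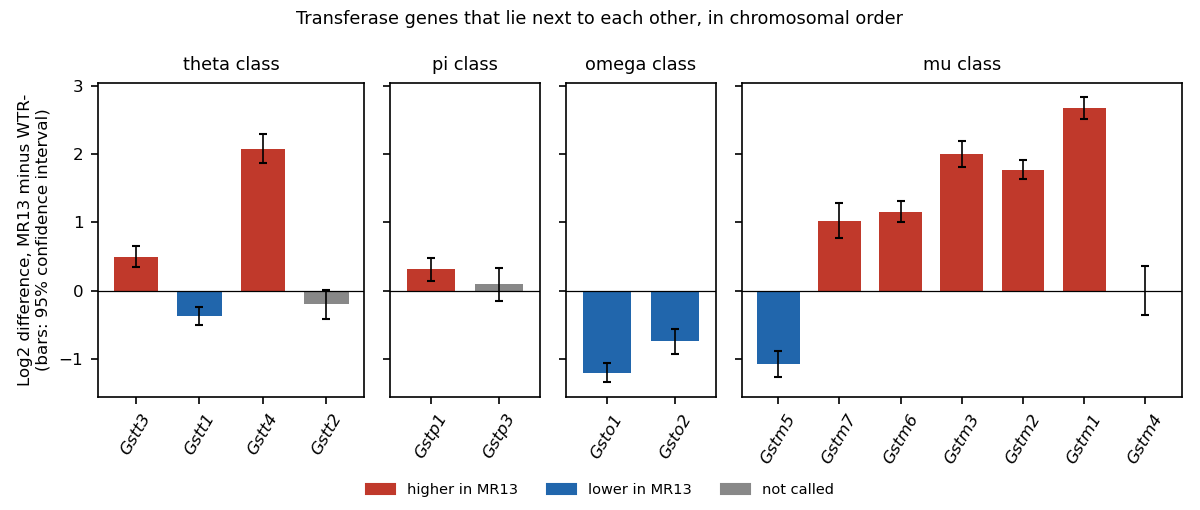
Log2 difference (MR13 minus WTR-, y axis) of transferase genes that lie next to each other, in the order of the RefSeq gene table (x axis, not to scale). Bars are limma estimates from 3 arrays a group, with 95% confidence intervals, and colours give the call. In the mu class the 5 inner genes are higher in MR13, from 1.03 to 2.68, while Gstm5 is lower and Gstm4 lies at 0. Gstm3 is drawn from its brighter probe set alone. For the pi class, Gstp2 has only probe sets shared with Gstp1 and is not drawn.

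Among the transferases of membranes and mitochondria, 2 of 4 rose, 1 fell and 1 did not pass. Mgst1, a microsomal transferase that also reduces lipid peroxides, was at 9.96, 10.03 and 10.11 in WTR- and at 11.39, 11.41 and 11.51 in MR13 (1.40, SE 0.06, adjusted p = 3.84e-07). Mgst2, a microsomal relative able to make leukotriene C4, was at 8.61, 8.69 and 8.90 in WTR- and at 10.03, 10.07 and 10.28 in MR13 (1.39, SE 0.09, adjusted p = 4.35e-06). The pair rose by nearly the same factor, 2.64-fold and 2.62-fold. Mgst3 did not pass although its MR13 values all lay below WTR- (-0.12, 95% CI -0.25 to 0.01, adjusted p = 0.15). Gstk1, the kappa-class enzyme of mitochondria and peroxisomes, fell by 0.35 on the log2 scale (SE 0.09, adjusted p = 0.014). It lost its call without WTR- replicate 2 or MR13 replicate 1 (-0.30 in both, adjusted p = 0.055 and 0.063) and in the methods' t-test (adjusted p = 0.099).

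Glutathione peroxidases were mixed, with 1 of 5 higher, 1 lower and 3 not passing. Gpx1, the main cytosolic enzyme, rose by 0.56 (SE 0.06, 1.47-fold, adjusted p = 5.22e-05). Gpx4, which reduces lipid hydroperoxides in membranes and protects cells from ferroptosis, went the other way, from 11.94 ± 0.09 to 11.52 ± 0.12 (SD, n = 3 each, adjusted p = 0.0017). A further Gpx4 probe set, 10364675, differed by -0.42 as well. Gpx2 (-0.08, 95% CI -0.32 to 0.16), Gpx3 (95% CI -0.14 to 0.14) and Gpx8 (-0.01, 95% CI -0.13 to 0.12) had overlapping groups, and Gpx3 was dim. Prdx1, a peroxiredoxin that uses thioredoxin, rose by 0.26 (SE 0.07, adjusted p = 0.014) and lost its call without WTR- replicate 1 or MR13 replicate 1 (0.22 in both, adjusted p = 0.052 and 0.051) and in the methods' t-test (adjusted p = 0.058). Its other probe set, 10507328, differed by 0.23.

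Superoxide dismutases, which turn superoxide into hydrogen peroxide, rose for 2 of 3 genes. Sod3, the secreted enzyme of the extracellular space, was at 6.71, 6.43 and 6.76 in WTR- and at 10.13, 10.34 and 10.07 in MR13. This was the largest difference of the set, 11.7-fold (3.55, SE 0.10, 95% CI 3.31 to 3.78, adjusted p = 3.30e-08), and every MR13 array lay far above every WTR- array. Sod2, the mitochondrial enzyme, was at 11.16, 11.24 and 11.19 in WTR- and at 12.50, 12.55 and 12.57 in MR13 (1.34, SE 0.05, 2.54-fold, adjusted p = 1.78e-07). The groups of the cytosolic Sod1 overlapped (0.02, 95% CI -0.14 to 0.19, adjusted p = 0.83), so a change of the size of Sod2 lies outside its interval. Cat, the catalase that removes hydrogen peroxide in peroxisomes, was likewise without a detected difference (-0.03, 95% CI -0.15 to 0.08, adjusted p = 0.67).

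NADPH is the reductant for glutathione and thioredoxin reductases, and the pentose phosphate pathway and malic enzyme are among its sources. Me1, the cytosolic malic enzyme, rose by 0.52 (SE 0.05, 1.43-fold, adjusted p = 6.73e-05), and its other probe set by 0.51. Pgd, 6-phosphogluconate dehydrogenase of the oxidative branch, rose by 0.36 (SE 0.06, adjusted p = 0.00099). The transketolase gene Tkt and the transaldolase gene Taldo1, both of the non-oxidative branch, did not pass. Their values were -0.08 (95% CI -0.19 to 0.04, adjusted p = 0.29) for Tkt and 0.18 (95% CI 0.04 to 0.33, adjusted p = 0.054) for Taldo1. Taldo1 passed after quantile normalization (0.25, adjusted p = 0.0072), without the dimmest 30% of genes (adjusted p = 0.032), with a trended and robust prior (adjusted p = 0.027), with the replicate block (adjusted p = 0.036) and without MR13 replicate 1 (0.24, adjusted p = 0.016).

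Of the enzymes acting on epoxides, carbonyls and heme products, Ephx1, the microsomal epoxide hydrolase, was at 7.31, 7.38 and 7.41 in WTR- and at 8.39, 8.56 and 8.55 in MR13. It rose 2.20-fold (1.13, SE 0.06, adjusted p = 1.64e-06). Blvrb, a biliverdin and flavin reductase, rose by 0.87 (SE 0.10, adjusted p = 0.00011). The heme oxygenase gene Hmox1, as given above, was without a detected difference. The neighbouring carbonyl reductase genes did not move together. Cbr1 fell from 9.15 ± 0.13 to 8.66 ± 0.09 (SD, n = 3 each, adjusted p = 0.00099), and Cbr3 was at 0.21 (95% CI -0.03 to 0.45, adjusted p = 0.17) and among the dimmest 30% of genes.

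A wider list of 94 further pathway genes, of which 87 were measured, held about as many rises as falls, but more of its large changes were rises. In it 28 genes rose, 30 fell and 29 did not pass (32.2% and 34.5%, against 17.0% and 20.6% of all genes), with a median of 0.05. Only 6 of the 87 lay among the dimmest 30% of genes, against 5979 of all 19933. The shares of all genes without the dim ones are larger and nearer to those of the list. Of the called differences of at least 1 in size, 12 of the 87 genes were higher and 3 lower in MR13. Over all 19933 genes these were 391 and 419 (1.96% and 2.10%). Of the 12 large rises, 4 were of further transferase genes, whose relatives can share probes. Among partners and competitors of NRF2, 3 of 10 rose and 3 fell. Nfe2l3, a relative of NRF2, was at -0.95 (SE 0.07), the small MAF gene Mafk at -0.63 (SE 0.05) and its relative Maff at 0.29 (SE 0.05). In cystine uptake and glutathione turnover, only Slc7a11 rose of 13 measured genes while 6 fell. Slc7a11, the cystine importer chain of system xc-, rose by 0.90, with 10.94 ± 0.11 in WTR- and 11.84 ± 0.01 in MR13 (SD, n = 3 arrays each, adjusted p = 6.30e-06). Ggct, which breaks down gamma-glutamyl peptides, was at -1.15 (SE 0.06), and Cth, which makes cysteine from cystathionine, at -0.86 (SE 0.06).

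Of 6 exporters of glutathione conjugates and drugs, Abcc3 (1.59, SE 0.07) and Abcc4 (0.50, SE 0.06) rose and Abcc5 fell (-0.26, SE 0.06). Of 15 other thioredoxin, peroxiredoxin and glutaredoxin genes, 3 rose and 7 fell. Txnip, which binds and inhibits thioredoxin, rose 10.1-fold, with 7.90 ± 0.14 in WTR- and 11.23 ± 0.05 in MR13 (SD, n = 3 arrays each, adjusted p = 8.58e-09). The glutaredoxin gene Glrx was at 0.89 (SE 0.05), and Prdx3, the mitochondrial peroxiredoxin, at -0.76 (SE 0.06). Among 13 other genes listed for NADP(H) supply or the pentose phosphate pathway, 4 rose and 5 fell. Rpia, ribose 5-phosphate isomerase, was 5.34-fold lower in MR13, at 9.58 ± 0.05 in WTR- and 7.16 ± 0.02 in MR13 (SD, n = 3 each, adjusted p = 6.78e-09). Idh1, the cytosolic NADP-dependent isocitrate dehydrogenase, rose by 1.23 (SE 0.05), and the mitochondrial NAD kinase gene Nadk2 by 0.80 (SE 0.06).

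Aldo-keto, aldehyde and quinone enzymes rose for 8 of 15 measured genes and fell for 3. The aldehyde dehydrogenase gene Aldh3a1 was at 2.48 (SE 0.07), the xanthine dehydrogenase gene Xdh at 2.26 (SE 0.05) and the aldo-keto reductase gene Akr1c13 at 2.07 (SE 0.10). Iron and heme genes were evenly divided, 3 of 8 higher and 3 lower, with the iron exporter Slc40a1 at -1.45 (SE 0.12), the heme transporter Slc48a1 at 0.90 (SE 0.05) and the transferrin receptor Tfrc at -0.58 (SE 0.05). Of 7 further transferase genes, 4 rose and 2 fell, led by Gstt4 (2.08, SE 0.09), Gstm3 and Gstm6. The alpha-class genes Gsta1 and Gsta2 share their probe sets with other genes and each other. Those 4 shared probe sets rose by 0.55 to 0.94 in the fit over all probe sets (adjusted p = 1.56e-05 to 0.00017).

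**Figure D4:**
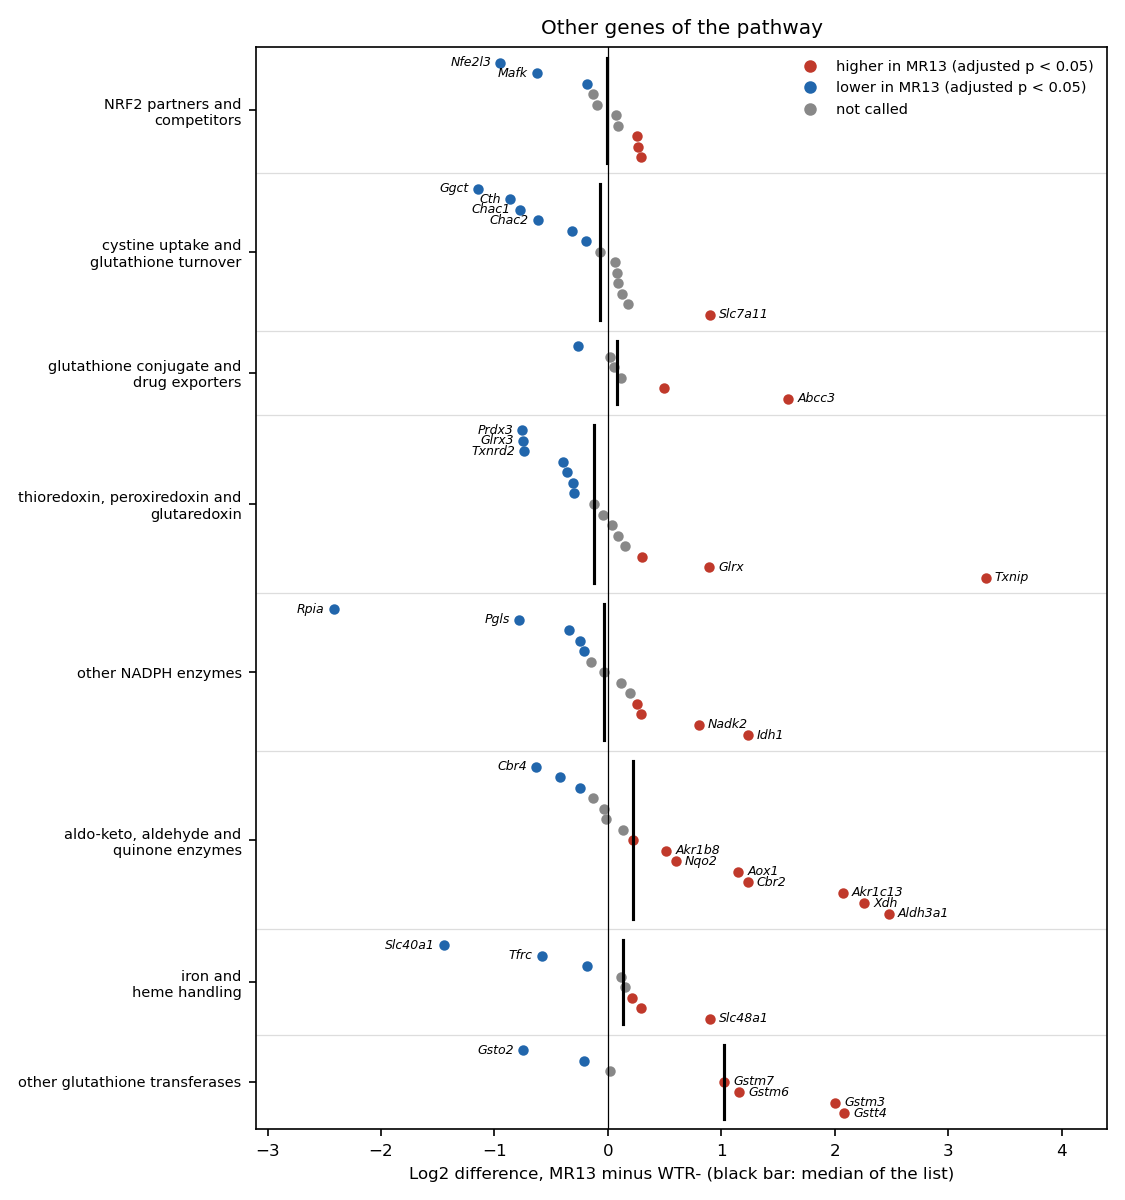
The 87 further pathway genes, arranged in 8 lists on the y axis, with their log2 difference (MR13 minus WTR-) on the x axis. Points stand for genes and take the colour of the call, black bars are list medians, and called genes of at least 0.5 in size are named. Txnip at 3.33 and Rpia at -2.42 are the extremes, and falls outnumber rises in cystine uptake and glutathione turnover, with 6 against 1.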

How the data were processed

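The authors deposited 1 log2 value for each probe set and array, with array medians of 6.57 to 6.62. Affy and limma are named in the submitters' processing notes. Their versions, the background correction, the summarization and the normalization between arrays are not given in the sources used here, and the unit was inferred from the range of 2.42 to 14.4. Of 28350 probe sets, 21780 had 1 gene symbol in the platform annotation, 1618 had several and 4952 were unnamed here. For a gene with several single-symbol probe sets, the brightest on average over all arrays was used, giving 19933 genes.

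MR13 and WTR- were compared with limma 3.58.1 (lmFit and eBayes, R 4.3.3), two-sided, with no covariate, with Benjamini-Hochberg adjustment over all genes and a threshold of 0.05. The number of arrays limits the precision, and without detection calls differences of dim transcripts can be understated. Probe sets with several symbols were tested in a fit over all probe sets. The members and lists were chosen with earlier results of these data known, so no list was tested as a set. Per-array values were given for called members of at least 1 in size, called falls of at least 0.5 and core NRF2 genes, and up to 3 called genes were named per further list. Core gene G6pdx was not analysed here. Alternatives were other normalizations, a filter on dim genes, other probe sets, a trended and robust prior, a replicate block, the methods' t-test (given by the study for 2 groups, Benjamini-Hochberg adjusted here) and leaving out each array. In simulated data of 19933 genes, of which 200 were changed, limma recovered 36% of genes changed 1.25-fold, 86% at 1.5-fold and 98% at 2-fold, with 2.44% false calls. Far more genes passed in the real comparison (37.6%), which loosens the adjusted threshold. These rates therefore do not give its sensitivity.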

Additional observations from a re-analysis of the deposited data

How the results depend on the processing

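Of the 45 detoxification genes, 32 had the same direction and the same call under every one of 14 alternatives that gave them a value, among them 21 of the 25 that rose and 6 of the 7 that fell. The genes that lost a call in some alternative were Gss, Gstp1, Gstk1, Prdx1 and Txnrd1. The count of genes that rose was 22 to 26 and that of genes that fell 6 to 8 over these alternatives, and leaving out an array in turn gave 23 to 25 and 6 to 8, with 8 rises of at least 1 each time. Quantile normalization moved the median difference from 0.26 to 0.33. In that setting 3940 of all genes rose and 3836 fell, against 3386 and 4111 in the main fit. Which direction is more frequent over all genes thus depends on the normalization. Without the Gst and Mgst genes, whose relatives can share probes, 18 of 29 genes rose and 2 fell. Of these, 3 rose by at least 1 and none fell by that much, with fewer genes counted. Genes without a call changed sign in some alternatives. After quantile normalization Gsta3 was at -0.0027, Gstm4 at -0.0070 and Gpx8 at 0.027. With an array left out, the values ranged from -0.069 to 0.074 for Gsta3, -0.18 to 0.14 for Gstm4, -0.051 to 0.027 for Gpx3, -0.030 to 0.028 for Gpx8, -0.042 to 0.092 for Sod1 and -0.017 to 0.065 for Hmox1, and the cause was not tested. Replicate numbers were not shown to pair the arrays: deviations from the group means correlated across genes at r = 0.13, -0.0012 and 0.18 for numbers 1, 2 and 3, and not every array correlated best with its own number. With the replicate block 25 detoxification genes rose and 7 fell, with Taldo1 gaining and Txnrd1 losing its call. The probe sets carry no detection calls, which limits what can be said of dim genes such as Gsta3, Gpx3 and Cbr3.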
